A study of Vitis vinifera with 45 samples.

Results

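RNA of berry skin was compared between self-grafted Crimson Seedless (CS/CS) and graft-free Crimson Seedless (CS) at DAF105, the last stage sampled, where DAF counts days after flowering. Crimson Seedless is a red, seedless table grape. The comparison took in 6 of the 45 libraries of the series, 3 of CS/CS and 3 of CS, which were chosen by the graft type and stage in their labels. CS grew on its own roots. In CS/CS the same scion had been grafted onto a Crimson Seedless rootstock, so both groups carry the same cultivar above and below ground and differ in the graft. The other 3 graft types, called heterografts, carried the scion on the rootstocks 101-14, 110R or SO4, and all 5 graft types were sampled at DAF45, DAF75 and DAF105. Berries came from a field planting, skins were pooled from several berries per sample, and the 3 samples of a group are biological replicates per the study. The sample titles give Crimson for CS/CS and Crimson Seedless for CS. Only a note in the study's mapping table says which of them is the self-graft.

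Grape skin reddens during ripening as anthocyanins accumulate. Phenylalanine ammonia-lyase (PAL) and 4-coumarate CoA ligase (4CL) feed the phenylpropanoid pathway, chalcone synthase (CHS) and chalcone isomerase (CHI) open its flavonoid branch, flavanone 3-hydroxylase (F3H) extends it, and leucoanthocyanidin dioxygenase (LDOX) makes the coloured anthocyanidins. Chalcone synthases and stilbene synthases are close relatives that use the same substrates, and grape carries PAL and stilbene synthase genes in tandem arrays of similar copies. During the same weeks the skin loses its photosynthetic apparatus and softens through enzymes of the cell wall such as xyloglucan endotransglucosylases (XTH) and expansins.

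The files name transcripts by identifier only. Names were taken from the study's primer list, which pairs 19 genes with identifiers, and Gene Ontology (GO) terms from its enrichment table. The RT-qPCR primers of CHI, LDOX, CHS and PAL1 are shown because the names of the genes that matter most below rest on this list alone. They are printed in the letter order of the list, whose heading gives opposite directions for the forward and the reverse column, and they were not matched to a genome here.
CHI forward: ggagtccttttggcagcctt
CHI reverse: caccggaagaaccaccactt
LDOX forward: ccctctttgtccatgtcggt
LDOX reverse: attgccttatggggaggtgc
CHS forward: tgtcaagtgcatgtgtgttgt
CHS reverse: aagcctggtccaaaaccgaa
PAL1 forward: atccgctgaactggggaatg
PAL1 reverse: acctgcgatatggtaagcgt

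The 6 libraries held from 17944084 to 20483102 counts and were of similar depth in both groups. Log2 CPM values of replicates correlated across transcripts with r from 0.965 to 0.986, and no pair of replicates agreed within counting noise. Of 17782 transcripts tested at DAF105, 2153 were higher and 786 lower in CS/CS than in CS (absolute log2 fold change above 1 and Benjamini-Hochberg adjusted p of 0.05 or less in edgeR's quasi-likelihood test). These are the differentially expressed genes (DEGs) below, and they make up 12.1% and 4.42% of the transcripts tested, which is the background for every list. The median log2 fold change over all tested transcripts was -0.002. Among the higher DEGs the median log2 fold change was 1.89, and 988 exceeded 2. Among the lower DEGs it was -1.46, and 219 were beyond 2 in size. In 144 of the higher DEGs every CS library held 3 counts or fewer, and in 19 of the lower DEGs every CS/CS library did. In TPM, a relative abundance scaled for transcript length and library total, the higher DEGs together made up 23732 ± 3570 TPM in CS and 86319 ± 8262 TPM in CS/CS (SD, n = 3), and the lower DEGs 133976 ± 25620 and 40712 ± 7874 TPM. Defining markers of skin cell types were not checked, because the identifiers could not be paired with gene families.

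Among the pathway genes of the primer list, the transcripts listed as PAL1, 4CL1 and CHS were higher in CS/CS at DAF105. By name these are early enzymes. The transcript listed as LDOX, by name a late enzyme, was lower. Which enzymes these transcripts encode was not tested, nor whether the one listed as CHS is a chalcone or a stilbene synthase. The study reports the darkest red in CS/CS berries at this stage, with pathway genes expressed above the other groups. The transcript listed as LDOX (VIT_18s0001g03430) was at 70.3, 108 and 106 TPM in CS and at 4.61, 14.9 and 15.8 TPM in CS/CS. All CS/CS libraries lay below all CS libraries. The log2 fold change was -3.09 ± 0.44 (SE, adjusted p = 0.00257). In the heterografts of the same stage LDOX ran from 49.6 to 166 TPM with a median of 99.3, near CS, and it rose with ripening in these berries (log2 fold change 4.93 ± 0.23 from DAF45 to DAF105).

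The transcript listed as CHS (VIT_16s0100g00950) showed the widest gap of the 19 genes. It was at 0.307, 0.599 and 0.303 TPM in CS and at 46.7, 25.2 and 48.4 TPM in CS/CS, and the groups did not overlap. Its log2 fold change was 6.51 ± 0.41 (SE, adjusted p = 0.000226). In the heterografts it lay between 0 and 2.46 TPM at DAF105. 4CL1 (VIT_11s0052g01090) was at 4.24, 4.80 and 3.86 TPM in CS and at 71.7, 34.0 and 71.5 TPM in CS/CS. This again left a clear gap between the groups, with a log2 fold change of 3.69 ± 0.31 (adjusted p = 0.000457). PAL1 (VIT_16s0039g01320) was low in both, at 3.14, 1.16 and 1.84 TPM in CS and 17.7, 5.46 and 11.6 TPM in CS/CS. Its log2 fold change was 2.37 ± 0.55 (adjusted p = 0.0142), and it was no longer called without CS replicate 2 or without CS replicate 3, where it was 2.06 and 2.30. In CHS, 4CL1 and PAL1 alike, CS/CS replicate 2 was the lowest of the 3 grafted libraries.

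Of the enzymes that act between CHS and LDOX, the primer list names CHI and F3H alone, and neither transcript was called. CHI (VIT_05s0094g00350) was among the most abundant transcripts, at 15246, 11904 and 10567 TPM in CS and 11998, 11267 and 12532 TPM in CS/CS. The libraries of the groups overlapped, and the log2 fold change was -0.17 ± 0.20 (adjusted p = 0.531). The enrichment table of the study places this identifier under cell wall organization or biogenesis, so its name as chalcone isomerase rests on the primer list. Whether it encodes chalcone isomerase was not tested. F3H (VIT_18s0001g14310) was at 739, 358 and 412 TPM in CS and 902, 720 and 709 TPM in CS/CS, with overlap and a log2 fold change of 0.53 ± 0.28 (adjusted p = 0.18). The 4CL-like genes gave log2 fold changes of 0.45 ± 0.11 (4CLL2) and -0.36 ± 0.41 (4CLL5), and OMTF3 one of -0.44 ± 0.16, none of them past the threshold of 1.

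Of the remaining genes of the list, XTH7 and EXL1 were higher in CS/CS. XTH7 (VIT_00s0386g00050), which carries the name of an enzyme that cuts and rejoins cell wall xyloglucan, was at 15.4, 16.4 and 11.3 TPM in CS and at 430, 352 and 285 TPM in CS/CS. Every grafted library stood far above every graft-free one, and the log2 fold change was 4.54 ± 0.20 (SE, adjusted p = 0.000113). EXL1 (VIT_16s0022g01430) rose from 0.548, 0.913 and 0.983 TPM to 3.99, 4.88 and 5.08 TPM (log2 fold change 2.42 ± 0.27, adjusted p = 0.00111). UBC28, a ubiquitin-conjugating enzyme, was at 186, 172 and 141 TPM in CS and 322, 345 and 261 TPM in CS/CS, without overlap but below the fold threshold (log2 fold change 0.81 ± 0.15, adjusted p = 0.00577). EXPA11, an expansin, gave 0.65 ± 0.17 (adjusted p = 0.0227) and ACBP6, an acyl-CoA-binding protein, -0.48 ± 0.11 (adjusted p = 0.0144). The transcription factors BHLH77, WRKY40 and WRKY46, the ubiquitin ligase PUB23 and the ripening-related protein had log2 fold changes between -0.39 and 0.04, and their libraries overlapped. In all, 5 of the 19 genes were higher and 1 was lower, beside 12.1% higher and 4.42% lower over all transcripts tested. The study chose the genes for its RT-qPCR from those it had called differentially expressed. The count is therefore not independent of that choice, and the list is not a sample of all transcripts.

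**Figure D1:**
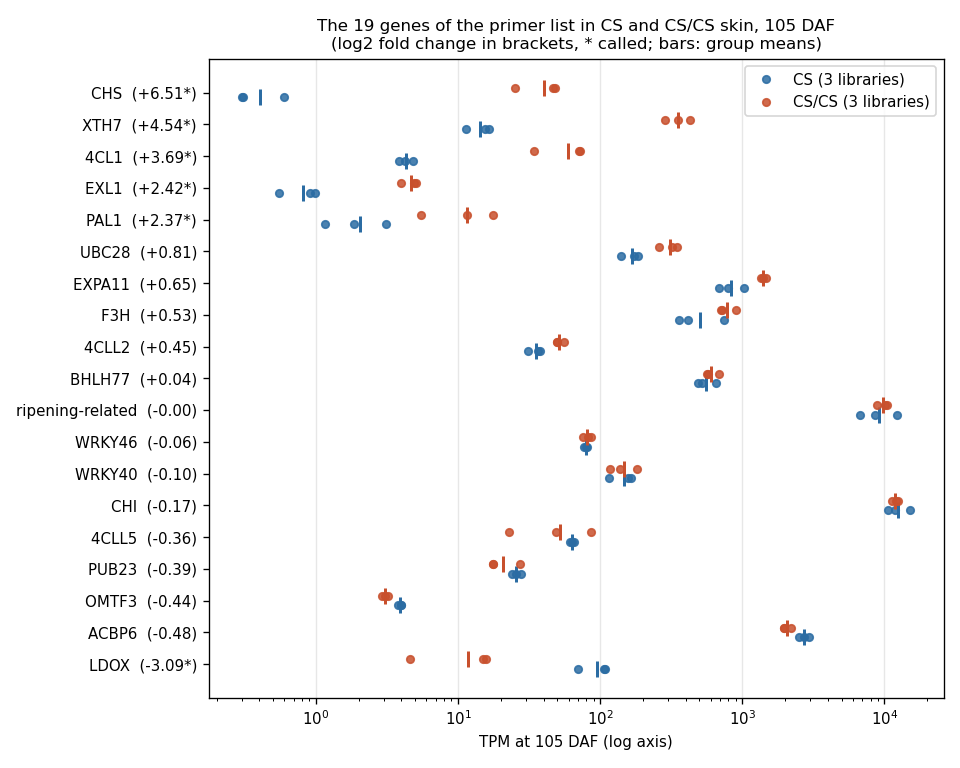
Each row is a gene of the primer list with its log2 fold change (CS/CS minus CS) in brackets, and the horizontal log axis gives TPM at DAF105. Points are the 3 libraries of each group and vertical ticks are group means. CHS, XTH7, 4CL1, EXL1 and PAL1 sit to the right in CS/CS and LDOX to the left, while CHI and the ripening-related protein overlap at the right.

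Many transcripts with identifiers close to CHS were higher in CS/CS. Consecutive identifiers of this annotation follow the order of genes on a scaffold. Within 50 identifier steps of CHS lie 78 other transcripts, of which 60 were tested. Of these, 33 were higher, 0 were lower and 27 were not called, against a background of 12.1% higher. Members near 0 in CS passed the count filter through CS/CS alone and could hardly be called lower, so the share and the median rest partly on them. With any CS/CS library left out, 48 were tested and 21 were higher. Of the 60, 20 had a negative log2 fold change. The median log2 fold change of the 60 was 2.70, or 2.69 with transcripts at the floor of 3 counts per library set to their bound. Those that were higher ran from 28 steps before to 26 steps after CHS, and from 1.30 to 9.96 on the log2 scale with a median of 4.99. In CS they reached 6.89 TPM at most. Together they made up 34.1, 25.1 and 22.7 TPM in CS and 790, 331 and 577 TPM in CS/CS. VIT_16s0100g00990 was the most abundant, at 3.85, 1.66 and 1.65 TPM in CS and 179, 61.1 and 103 TPM in CS/CS (log2 fold change 5.47 ± 0.53, adjusted p = 0.000735). VIT_16s0100g01200 went from 1.12, 1.85 and 0.989 TPM to 64.0, 33.6 and 75.7 TPM, with a log2 fold change of 5.35 ± 0.39.

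Around PAL1 the pattern was smaller and less uniform. Of 94 other transcripts within 50 steps, 51 were tested, 15 were higher and 3 lower (5 lower without CS replicate 1), with a median log2 fold change of 0.30. The 15 ran from 26 steps before to 10 steps after PAL1 and from 1.48 to 5.28 on the log2 scale. VIT_16s0039g01070 had the highest value, going from 0.804, 1.19 and 0.951 TPM in CS to 24.3, 43.6 and 54.1 TPM in CS/CS (log2 fold change 5.28 ± 0.38, adjusted p = 0.000306). More abundant was VIT_16s0039g01100, at 55.9, 26.7 and 33.8 TPM in CS and 157, 80.8 and 120 TPM in CS/CS (log2 fold change 1.52 ± 0.33), and it was not called without CS replicate 3 (1.42) or in the fit of all 45 libraries (1.53). VIT_16s0039g01170 rose from 11.2, 9.29 and 8.80 TPM to 63.6, 27.3 and 44.7 TPM (2.11 ± 0.29 on the log2 scale). The groups around 4CL1 leaned the other way, with 3 of 51 tested higher and 11 lower. For no other primer-list gene did the higher members exceed 9 or the lower members 5.

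The transcripts of both runs varied together among the grafted libraries. CS/CS replicate 1 was the highest of the 3 in 28 of the 33 transcripts near CHS and in 10 of the 15 near PAL1, and CS/CS replicate 2 was the lowest in 29 and 11. Of the deposited counts above 0 in the 33 transcripts, 18.9% were whole numbers, and 34.1% in the 15 near PAL1, against 87.7% over all transcripts of these 6 libraries (whole within 1e-06). The level of a single member is therefore uncertain where similar copies share reads. How the sharing of reads affects the summed TPM of the 33 was not tested. When a CS/CS library was left out, 21 of 48 tested members near CHS were higher, and 1 was lower without CS/CS replicate 1, CS/CS replicate 3, CS replicate 2 or CS replicate 3. The filter asks for 10 counts in 3 libraries, which transcripts near 0 in CS cannot meet with 2 grafted libraries. When a CS/CS library was left out, 12 or 13 of 49 tested members near PAL1 were higher.

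**Figure D2:**
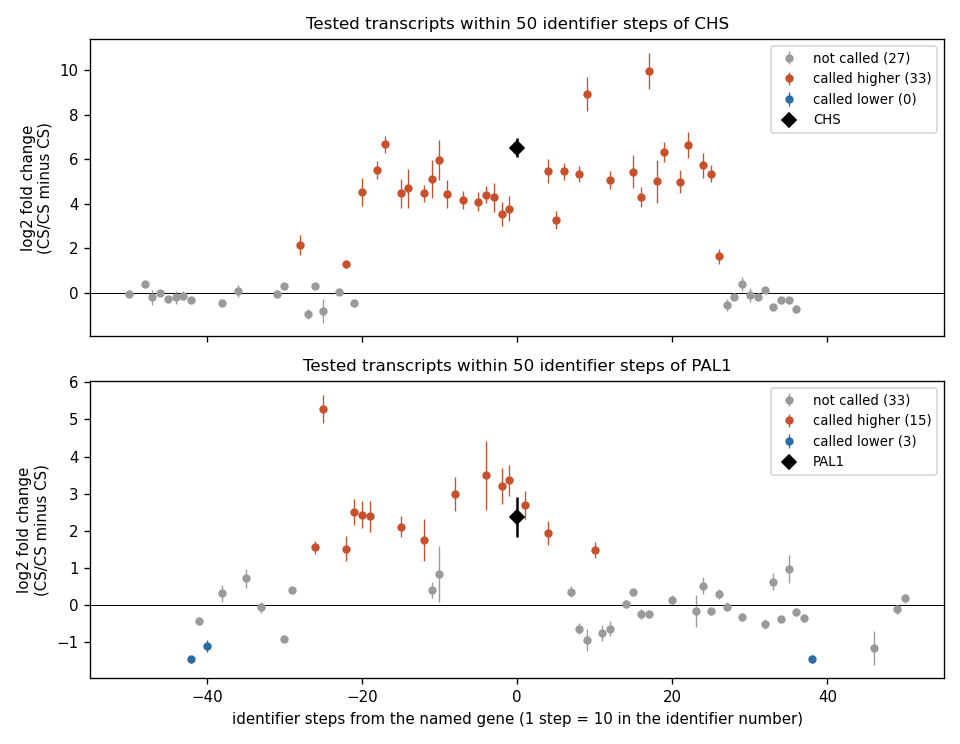
Points are tested transcripts placed by identifier steps from CHS (above) and PAL1 (below), and the vertical axis is the log2 fold change of CS/CS minus CS at DAF105 with its SE. The 33 higher members around CHS lie between 1.30 and 9.96, flanked on both sides by members near 0. The 15 higher members around PAL1 lie between 1.48 and 5.28.

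Most of the photosystem transcripts tested were higher in CS/CS skin. Photosystems capture light through chlorophyll bound to light-harvesting proteins. Of 18 identifiers under the GO term photosystem, 15 were tested, 10 were higher and 0 were lower, against 12.1% higher and 4.42% lower over all transcripts. All 15 had a positive log2 fold change, with a median of 1.25. All 18 fell with ripening in the heterografts. Of all transcripts that fell there, 37.8% were higher and 2.11% lower in CS/CS. This is a second background for those GO lists below whose members fell. The light-harvesting term held 9 identifiers, 7 of them tested and 6 higher, with a median of 2.17. The most abundant higher member, VIT_05s0020g03180, was at 106, 82.3 and 69.1 TPM in CS and 228, 255 and 169 TPM in CS/CS (log2 fold change 1.25 ± 0.21, adjusted p = 0.00432). VIT_10s0003g02890 showed a wider gap, from 3.12, 2.80 and 2.87 TPM to 14.4, 35.6 and 20.2 TPM (2.91 ± 0.36 on the log2 scale). In 9 of the 10, CS/CS replicate 2 was the highest grafted library, the opposite of the transcripts near CHS. Without that library, 5 of the 13 identifiers under photosystem I were called rather than 8.

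Lipid and membrane terms followed. Of 17 tested transcripts of proteins anchored to the plasma membrane, 10 were higher and 0 lower, with a median log2 fold change of 1.54. VIT_19s0014g02460 among them was at 40.4, 33.7 and 35.1 TPM in CS and 118, 138 and 118 TPM in CS/CS (1.69 ± 0.12 on the log2 scale). Of 13 tested under fatty acid biosynthesis, 8 were higher and 1 lower, with a median of 1.36, but 5 were higher without CS replicate 3 and 0 lower without CS/CS replicate 2. Jasmonic acid, a wound and defence hormone, is made from fatty acids. Of 6 tested transcripts of its metabolism 3 were higher and 0 lower. Of 8 members tested for ripening in the heterografts, 7 fell, and 37.8% of all transcripts that fell there were higher in CS/CS. With 6 transcripts tested, the count is too small to set apart from that share. VIT_14s0083g00110 went from 12.4, 14.3 and 13.0 TPM to 38.9, 32.8 and 37.1 TPM (1.36 ± 0.11), a gap wider than the spread in both groups. Lipases cleave fatty acids from lipids, and of 13 tested 5 were higher and 1 lower. The lower one was not called without CS/CS replicate 2, CS replicate 2 or CS replicate 3. VIT_09s0002g00570 rose most, from 7.37, 12.6 and 11.0 TPM to 181, 150 and 106 TPM (3.73 ± 0.25, adjusted p = 0.000283). Both oligopeptide transport members that were called, of 4 tested, were higher, VIT_05s0049g01550 by 2.70 ± 0.26 on the log2 scale. All 7 members tested for ripening fell in the heterografts, and 4 transcripts are too few to set apart from the share of 37.8%.

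Fewer terms leaned lower in CS/CS. Chitin is a fungal wall polymer that plants sense as a sign of attack. Of 6 tested transcripts under response to chitin, 3 were lower and 0 higher, with a median log2 fold change of -0.88. VIT_03s0091g00690 was at 141, 178 and 152 TPM in CS and at 62.8, 53.7 and 63.2 TPM in CS/CS (-1.47 ± 0.11, adjusted p = 0.000374). VIT_13s0067g01070 went from 282, 271 and 228 TPM to 148, 106 and 135 TPM (-1.10 ± 0.16) and was -0.96, not called, without CS/CS replicate 2. Response to carbohydrate stimulus holds the same 3 lower transcripts among 8 tested. Phosphoenolpyruvate carboxykinase links organic acids to sugar synthesis in ripening fruit. Its 4 identifiers all had lower values in CS/CS, from -0.52 to -1.02 on the log2 scale. Of these, 2 passed the threshold, 0 of them without CS/CS replicate 1 and 1 without CS replicate 2. All 4 rose with ripening in the heterografts, and of all transcripts that rose there 18.2% were lower in CS/CS. Auxin signalling was mixed, with 1 higher and 2 lower of 12, and 0 higher without CS/CS replicate 1, CS replicate 1 or CS replicate 3. VIT_07s0141g00270 was the lowest of these, from 15.9, 32.9 and 35.7 TPM in CS to 3.65, 3.96 and 4.79 TPM in CS/CS (-2.85 ± 0.32). Regulation of defence (1 higher of 11) and response to wounding (1 higher of 8) had medians of 0.12 each, and 2 were higher in each without CS/CS replicate 2 and 1 lower without CS replicate 3.

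These GO lists were not drawn from the libraries compared here. The study selected them on heterografts against CS at DAF75. Their members were nearly all of one kind, since of 130 members of the terms headed downregulated that could be tested for ripening in the heterografts, 117 fell from DAF45 to DAF105 and 0 rose. At DAF105 42 of 109 tested (38.5%) were higher and 9 (8.26%) lower in CS/CS (5 lower without CS/CS replicate 2). The share of higher ones was near the 37.8% found over all transcripts that fell with ripening, as was that of the lipase list (38.5%). In bulk tissue, fewer cells of a type and less RNA per cell cannot be told apart.

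**Figure D3:**
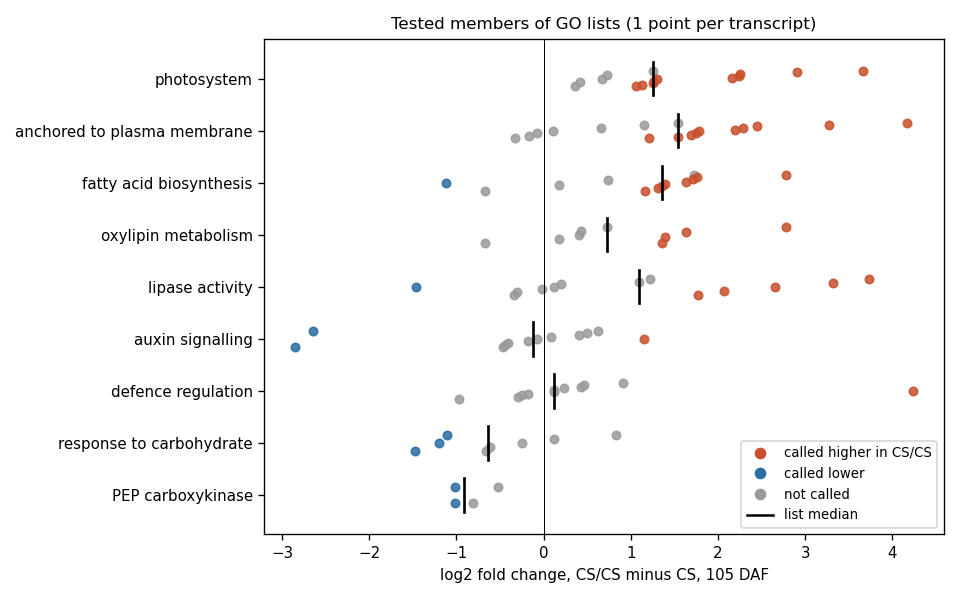
Each point is a tested transcript of a GO list, placed by its log2 fold change (CS/CS minus CS, DAF105), and black bars are list medians. All photosystem members lie to the right of 0 with a median of 1.25, and all 4 phosphoenolpyruvate carboxykinase members lie to the left.

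Whether the differences follow the course of ripening was examined with libraries that the graft comparison does not use. In the heterografts, 2949 of 19118 transcripts rose (15.4%) and 4447 fell (23.3%) from DAF45 to DAF105. Of 2067 transcripts higher in CS/CS that were tested in both, 1344 (65.0%) fell with ripening in the heterografts and 175 (8.47%) rose, against 20.1% and 15.3% of the 17637 transcripts tested in both. Of 778 lower in CS/CS, 489 (62.9%) rose and 75 (9.64%) fell. The shared transcripts made up 37.8% of those that fell and 18.2% of those that rose with ripening. Across the 17637 transcripts the log2 fold changes had a Pearson correlation of -0.523 and a Spearman correlation of -0.533. This describes transcripts, which are not independent, and the points share 6 and 18 libraries. Of the 33 higher transcripts near CHS, 24 were tested in the heterografts, where 3 fell and 9 rose. Of the 15 near PAL1, 3 fell and 8 rose of 13 tested.

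**Figure D4:**
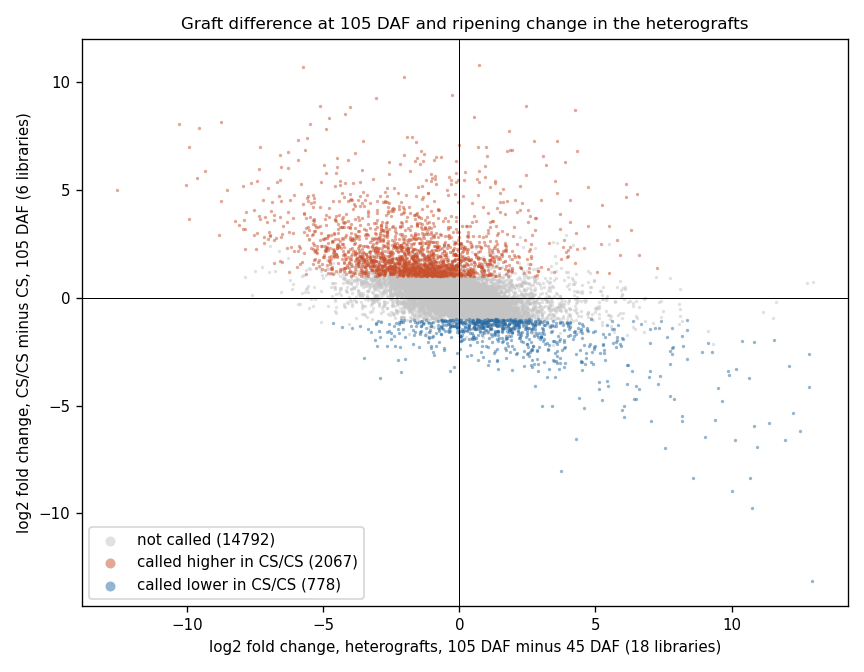
Each point is 1 of 17637 transcripts, with its ripening change in the heterografts on the horizontal axis and the graft difference at DAF105 on the vertical axis, both as log2 fold changes. Most of the 2067 higher transcripts lie left of 0 and most of the 778 lower ones right of 0 (Pearson correlation -0.523).

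The largest differences among transcripts of at least 10 TPM ran in both directions and had no name in the sources used. VIT_07s0031g01980 was at 0, 0.0417 and 0.172 TPM in CS and at 99.7, 104 and 84.3 TPM in CS/CS, with 1.73 to 19.2 TPM in the heterografts. Its log2 fold change was 10.22 ± 0.36 (adjusted p = 5.28e-05). VIT_01s0026g01380 was at 61.1, 48.7 and 33.8 TPM in CS/CS while every CS library held 3 counts or fewer, which made it at least 251-fold higher against a floor of 3 counts per library. VIT_00s0267g00030 went from 0.558, 0.129 and 0.199 TPM to 138, 80.6 and 53.1 TPM (8.14 ± 0.56), and it fell with ripening in the heterografts by 8.77 on the log2 scale. VIT_14s0083g01140 was at 1.64, 0.716 and 0.717 TPM in CS and 137, 317 and 128 TPM in CS/CS (7.45 ± 0.58). VIT_13s0067g02300 was listed at 0 in every CS library and stood at 25.7, 87.2 and 20.5 TPM in CS/CS, at least 72.9-fold higher. Of the 10 largest, VIT_18s0001g05300 alone was called as rising with ripening in the heterografts, 6 fell, 2 were not called and 1 was not tested.

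At the other end, VIT_00s0253g00080 was at 49.5, 89.2 and 61.6 TPM in CS and listed at 0 in all 3 CS/CS libraries, at least 369-fold lower against the floor. It reached 36.7 to 506 TPM in the heterografts at DAF105. VIT_10s0003g02960 stood at 8.55, 15.3 and 10.9 TPM in CS and at 0 in CS/CS, at least 35.7-fold lower. VIT_14s0066g01090 went from 53.6, 210 and 296 TPM to 0.92, 0.505 and 4.65 TPM, a log2 fold change of -6.62 ± 0.91 (adjusted p = 0.00225), and VIT_14s0060g01870 from 25.6, 78.3 and 60.0 TPM to 0.106, 0.578 and 1.28 TPM (-6.44 ± 0.65). In both, CS replicate 1 was the lowest graft-free library. It was so in all 10 of the largest lower transcripts. Of these, 9 rose with ripening in the heterografts and VIT_12s0028g02090 was not tested there.

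The most abundant DEG was lower in CS/CS. VIT_19s0090g01350 was at 38611, 58561 and 67167 TPM in CS and 9404, 9904 and 16912 TPM in CS/CS, and at 48900 to 67400 TPM in the heterografts. The groups stood far apart, with a log2 fold change of -2.24 ± 0.32 (adjusted p = 0.00263). VIT_19s0090g01370, a close neighbour by identifier, went from 4196, 7242 and 7560 TPM to 601, 1007 and 1661 TPM (-2.59 ± 0.41). VIT_06s0004g04650 was at 10185, 16142 and 16820 TPM in CS and 5559, 4575 and 6093 TPM in CS/CS (-1.48 ± 0.22). VIT_01s0010g00980 gave -1.43 ± 0.20. VIT_12s0059g00590 lay at the threshold with -1.01 ± 0.23 and lost its call under most alternatives. These were DESeq2, RLE size factors, the filter on mean TPM, the fits of 15 and of 45 libraries and limma (-0.96), and leaving out CS/CS replicate 1 (-0.78), CS replicate 1 (-0.99) or CS replicate 3. Among the higher DEGs the most abundant was VIT_11s0016g05530, at 1613, 1117 and 1066 TPM in CS and 2747, 2536 and 3064 TPM in CS/CS (1.05 ± 0.20). It fell under the threshold without CS/CS replicate 3 (0.98), CS replicate 2 (0.95) or CS replicate 3 (0.94). VIT_04s0008g05010 went from 1136, 650 and 482 TPM to 3248, 2435 and 1904 TPM (1.64 ± 0.35), was not called without CS replicate 2 (1.52), and was at 108 to 1060 TPM in the heterografts. VIT_08s0058g01210 varied most, with 388, 41.3 and 68.6 TPM in CS and 3405, 1344 and 793 TPM in CS/CS (3.35 ± 0.95, adjusted p = 0.0299), and was not called without CS/CS replicate 1, CS/CS replicate 2, CS replicate 2 or CS replicate 3 (2.61 to 3.54).

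How the differences at DAF105 stood against those at earlier stages was tested by an interaction term over 12 libraries. The log2 graft difference at DAF105 was above that at DAF75 in 1766 (9.27%) and below it in 919 (4.83%) of 19046 transcripts. It was above that at DAF45 in 2132 (11.1%) and below it in 1446 (7.52%) of 19218. In the separate tests of these stages, 9.1% of transcripts were higher and 6.76% lower in CS/CS at DAF75, and 12.1% and 6.15% at DAF45. Of 1948 transcripts higher at DAF105 and tested at both stages, 646 (33.2%) were also higher at DAF75, where they made up 48.9% of the higher transcripts, and 68 were lower. Of 641 lower at DAF105, 147 (22.9%) were also lower at DAF75, or 13.1% of the lower transcripts there, and 62 (9.67%) were higher. Over all transcripts tested at both stages, 7.81% were higher and 6.66% lower at DAF75. With DAF45, 569 of 1956 higher (29.1%) and 94 of 616 lower (15.3%) went the same way. The opposite way went 172 of the higher (8.79%) and 80 of the lower (13.0%), nearly as many as the 94. Over all transcripts tested at both stages, 9.55% were higher and 6.1% lower at DAF45. Over 16652 transcripts tested at all stages, 1892 were higher at DAF105, and 315 of these were higher at each stage. For lower transcripts it was 57 of 591. At both earlier stages, 563 were higher and 444 lower.

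Single genes, named as in the primer list where it holds them, took different courses. CHI stood at 546 ± 306 TPM in CS and 10.3 ± 13.5 TPM in CS/CS at DAF45 and at 1123 ± 376 and 17.4 ± 9.72 TPM at DAF75 (SD, n = 3), before both groups met near 12000 TPM at DAF105. Its graft difference at DAF105 exceeded that at DAF75 by 5.86 ± 0.57 on the log2 scale (adjusted p = 0.000266) and that at DAF45 by 5.77 ± 1.09 (adjusted p = 0.00273). EXPA11 was lower in CS/CS at DAF45 and DAF75 (-1.73 ± 0.34 and -1.80 ± 0.47), and its difference of 0.65 at DAF105 lay above both. LDOX was under 5 TPM in every library of both groups before DAF105, and its graft difference fell by 2.38 ± 0.66 from DAF75 to DAF105 (adjusted p = 0.0224). XTH7 was higher in CS/CS at DAF75 already (4596 ± 895 against 935 ± 356 TPM), and the log2 difference grew by a further 2.26 ± 0.39 at DAF105, while its level dropped in both groups. EXL1 was higher at all stages, with log2 fold changes of 2.13, 2.80 and 2.42 at DAF45, DAF75 and DAF105, and neither interaction passed the threshold (adjusted p = 0.507 and 0.637). VIT_19s0090g01350 was lower at all stages, and the gap narrowed from -7.49 ± 0.57 at DAF45 over -4.66 ± 0.51 at DAF75 to -2.24 ± 0.32.

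**Figure D5:**
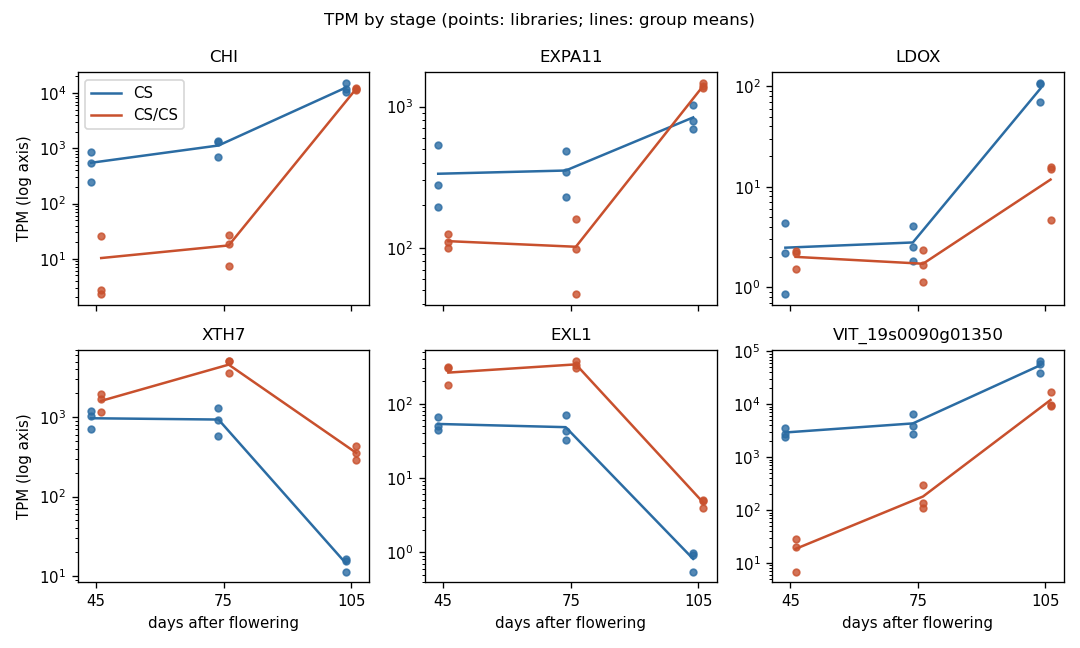
Panels show TPM on a log axis against days after flowering for 6 transcripts, with points for the 3 libraries of CS and of CS/CS and lines through the group means. CHI and EXPA11 are lower in CS/CS at DAF45 and DAF75 but not at DAF105, LDOX separates only at DAF105, and EXL1 and VIT_19s0090g01350 stay apart throughout.

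The photosystem list gave 0 of 18 higher at DAF75, 5 of 18 at DAF45 and 10 of 15 at DAF105. Over all transcripts the shares were 9.1%, 12.1% and 12.1%. The study chose the list with the CS libraries of DAF75, which are also the baseline of the count at DAF75. That count is therefore not independent of the choice, and the difference between stages was not tested for the list. Of the 33 higher transcripts near CHS, 4 of 23 tested were higher at DAF75 and 4 of 19 at DAF45. CHS itself had log2 fold changes of 4.25 ± 1.43 at DAF75 (adjusted p = 0.0506) and 2.84 ± 0.97 at DAF45 (adjusted p = 0.0557), and neither interaction passed the threshold (adjusted p = 0.437 and 0.0605).

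CS/CS also differed from the heterografts of the same stage, a comparison that shares the CS/CS libraries, so its values are set beside those against CS. Against the mean of the heterografts, 2703 of 18310 transcripts were higher (14.8%) and 904 lower (4.94%). LDOX gave -3.14 ± 0.39 there and -3.09 against CS, CHS 5.29 ± 0.48 and 6.51, XTH7 5.51 ± 0.53 and 4.54, and VIT_19s0090g01350 -2.32 ± 0.20 and -2.24. WRKY40, WRKY46 and PUB23 were higher in CS/CS than in the heterografts (1.69 ± 0.16, 1.96 ± 0.26 and 2.07 ± 0.17), with values of -0.10, -0.06 and -0.39 against CS. Response to chitin had 1 of its members higher and 0 lower in CS/CS than in the heterografts, beside 0 higher and 3 lower against CS.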

How the data were processed

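The 45 libraries of berry skin RNA were grouped by the wording of their titles, and 0 columns of the tables stayed without a sample. Per the study's methods, the authors cleaned reads with fastp and mapped them to the V. vinifera 12X assembly by HISAT2, with StringTie for transcripts and HTSeq for read counts. The expected counts were deposited without normalization and are partly fractional, which the methods do not explain, and they were rounded to whole numbers. The TPM values deposited are the authors' own, scaled for length and library total, and served as levels.

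Tests used R 4.3.3 with edgeR 4.0.16 (quasi-likelihood, TMM). A transcript entered a test when 3 or more of the libraries in it held 10 counts or more. Calls needed a Benjamini-Hochberg adjusted p no higher than 0.05 and a log2 fold change beyond 1 in size. Heterografts were averaged over the 3 rootstocks as separate groups. SEs are those of the fitted log2 fold change. Where every library of a group held 3 counts or fewer, the fold is a lower bound against 3 counts per library. The fitting code was run on simulated counts of a single dispersion, with changes set only in well-covered transcripts. Calls at low counts were not checked by this.

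Alternatives were DESeq2 1.42.0, RLE size factors, other filters, fits of 15 or 45 libraries, limma 3.58.1 on log2(TPM + 1), a replicate block, unadjusted p-values and leaving out each library. Transcripts named are the 19 of the primer list and, per direction, the 10 largest and 5 most abundant calls. These calls needed at least 10 TPM, no overlap and 1 direction in every leave-one-out fit that tested them. Of 180 named transcripts, 15 were not tested without a given CS/CS library and 11 without a given CS library. Up to 3 called members per direction of each list were also named, of which examples are printed. The lists are complete GO terms and identifiers within 50 steps of a primer-list gene. A printed transcript outside these rules was chosen after its values were seen. The members and lists were chosen with earlier results of these data known. None of the identifiers (0) was found in the reference gene table, so product families, cell type markers and genome sequence were not used here, nor were metabolites.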

Additional observations from a re-analysis of the deposited data

Results flagged for a closer look

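For some primer-list genes and abundant transcripts, the graft difference at DAF105 differed from that at an earlier stage by the interaction test in edgeR (log2 scale, adjusted p of 0.05 or less). Against DAF75, it was above by 5.86 in CHI, 2.93 in the ripening-related protein, 2.44 in EXPA11, 2.26 in XTH7, 2.06 in BHLH77, 1.39 in UBC28 and 1.15 in F3H. It was below in LDOX (-2.38), PUB23 (-1.39) and WRKY40 (-1.08). Against DAF45, it was above by 5.77 in CHI, 4.01 in XTH7, 3.05 in 4CLL5, 2.78 in BHLH77, 2.39 in EXPA11, 1.69 in UBC28 and 1.45 in 4CL1, and below in LDOX (-2.62).

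Among the most abundant DEGs the difference against DAF75 was 2.40 in VIT_19s0090g01350, 1.82 in VIT_02s0025g04310 and 1.81 in VIT_04s0008g05010. Against DAF45 it was 5.25 in VIT_19s0090g01350, 4.82 in VIT_12s0059g00590, 3.04 in VIT_02s0025g04310, 1.92 in VIT_04s0008g05010, 1.66 in VIT_11s0016g05530 and 1.51 in VIT_05s0020g00670. Over all transcripts the graft difference differed from that at DAF75 in 2685 and from that at DAF45 in 3578.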

How the results depend on the processing

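At DAF105, 2229 to 2896 transcripts were called when a library was left out (1593 to 2178 higher, 539 to 943 lower), against 2939 in all. Of these 2939, DESeq2 called 98.0%, RLE size factors 99.6% and limma on log2(TPM + 1) 73.1% in the same direction, and no alternative called one in the opposite direction. With limma 469 were lower. The filter of 10 counts in 3 libraries removed transcripts near 0 in CS when a CS/CS library was left out. At DAF75 the lower calls ranged from 783 (without CS replicate 2) to 1764, and at DAF45 the higher calls from 1420 (without CS/CS replicate 3) to 2054.

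Of 180 named transcripts, 61 lost their call under at least 1 alternative and 6, none of them called, changed sign. The ripening-related protein went from -0.002 to 0.0055 with DESeq2, 0.0055 with RLE, 0.045 with a replicate block, 0.0062 when transcripts averaging under 1 TPM were dropped, 0.0067 in the fit of 15 libraries, 0.010 in that of 45 and 0.13 with limma, and ranged from -0.19 to 0.29 without single libraries. WRKY46 was 0.033 with limma and ranged from -0.096 to 0.0086. CHI ranged from -0.28 to 0.0094, BHLH77 from -0.048 to 0.18, 4CLL5 from -0.91 to 0.021 and WRKY40 from -0.26 to 0.052.

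Deviations of same-numbered libraries correlated at 0.070, -0.130 and 0.114. No pairing by replicate number was detected, but with 3 libraries per group these values cannot exclude one. The study reports randomized block designs for berry collection. With a replicate block, 2064 were higher and 779 lower. The filter left out transcripts with few counts. With a filter of at least 1 count, 23893 transcripts were tested and 3208 called.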
